A study of Bos taurus with 12 samples.

Results

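Transcript abundance of 8 genes that write, copy or remove marks on DNA and histones was followed in bovine endometrium, the inner lining of the uterus. The genes were the DNA methylation genes DNMT1, UHRF1, DNMT3A and DNMT3B, the histone deacetylase genes HDAC1 and HDAC2, the histone demethylase gene KDM1A and the histone methyltransferase gene EZH2. Every probe set that carried 1 of these symbols in the platform annotation was taken, which gave 14 of 24016 probe sets and 8 of 9155 named genes. The RNA came from Simmental heifers and was hybridised as 12 pools, 1 per Affymetrix bovine array. There were 3 pools each of non-receptive endometrium on day 3 of the estrous cycle, receptive endometrium on day 3, non-receptive endometrium on day 7 and receptive endometrium on day 7. Receptivity had been assigned from the pregnancy outcome after transfer of embryos produced in vivo, and the title of the series calls the tissue pretransfer endometrium. The labels give neither the animals per pool, their age, nor whether the pools of a group hold different animals. They also do not say whether pools of day 3 and day 7 hold the same animals. All p-values below hence reflect only how much pools varied, and that variation may be partly technical.

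Methylation of cytosine in DNA is kept through cell division by a maintenance system, in which UHRF1 recognises the half-methylated sites left behind by replication and brings in DNMT1, the enzyme that methylates the new strand. DNMT3A and DNMT3B are the de novo enzymes, which place methyl groups on sites that had none. On histones, HDAC1 and HDAC2 are closely related enzymes that remove acetyl groups, KDM1A removes methyl groups from lysine and works in complexes with these deacetylases, and EZH2 is the catalytic subunit of Polycomb repressive complex 2, which methylates lysine on histone H3. Maintenance genes and EZH2 are commonly more abundant in dividing cells.

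Values are log2 signals as deposited, in which a difference of 1 is a doubling, and each gene is described by its probe set with the highest mean signal unless another is named. Array medians lay between 6.64 and 6.76, and no member probe set reached the floor of 0 (the lowest value was 2.65). Pools of a group correlated at 0.952 to 0.971 across probe sets. The epithelial markers EPCAM and CDH1 were bright on both days (means of 13.10 and 12.93, and of 12.25 and 12.03). Of the 9 measured epithelial markers, 4 had a lower and 5 a higher mean on day 7. Of the endometrial markers, ESR1 and PGR were dim (means of 3.57 to 4.43), HOXA10 fell from 5.44 to 4.11, while SERPINA14, the uterine serpin, rose from 3.33, with some pools of day 3 listed at 0, to 8.83. Of these 4 endometrial markers, 3 had a lower mean on day 7, and 2 of them were called in the day comparison given below. Only SERPINA14 went the other way, and it was called as higher. Pooled tissue RNA does not tell fewer cells of a type from less RNA per cell.

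Between day 3 and day 7 the transcripts of the maintenance genes, of HDAC2, KDM1A and EZH2 became less abundant. So did those of the de novo gene DNMT3A by its brightest probe set, while HDAC1 and DNMT3B did not pass the test. The DNMT3A call was lost with the mean of its probe sets, and the EZH2 call depended on single pools. Averaged over receptivity, 6 of the 8 genes were lower on day 7 and 0 were higher (limma with Benjamini-Hochberg adjustment across all 24016 probe sets, threshold 0.05). Among all named genes 10.3% were lower, 6.76% were higher, and the median log2 change was -0.02, against a median of -0.57 over the 8 members. For 5 of the 8 members, each by its brightest probe set, all 6 pools of day 7 lay below all 6 pools of day 3. That pattern was seen in 5.16% of all probe sets, with or without a gene name, and its share among named genes was not computed. By probe set, 7 of 14 were called, beside 14.2% of all probe sets called in either direction. The members were chosen with earlier results of these data known, so the excess over these shares is only a description.

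**Figure D1:**
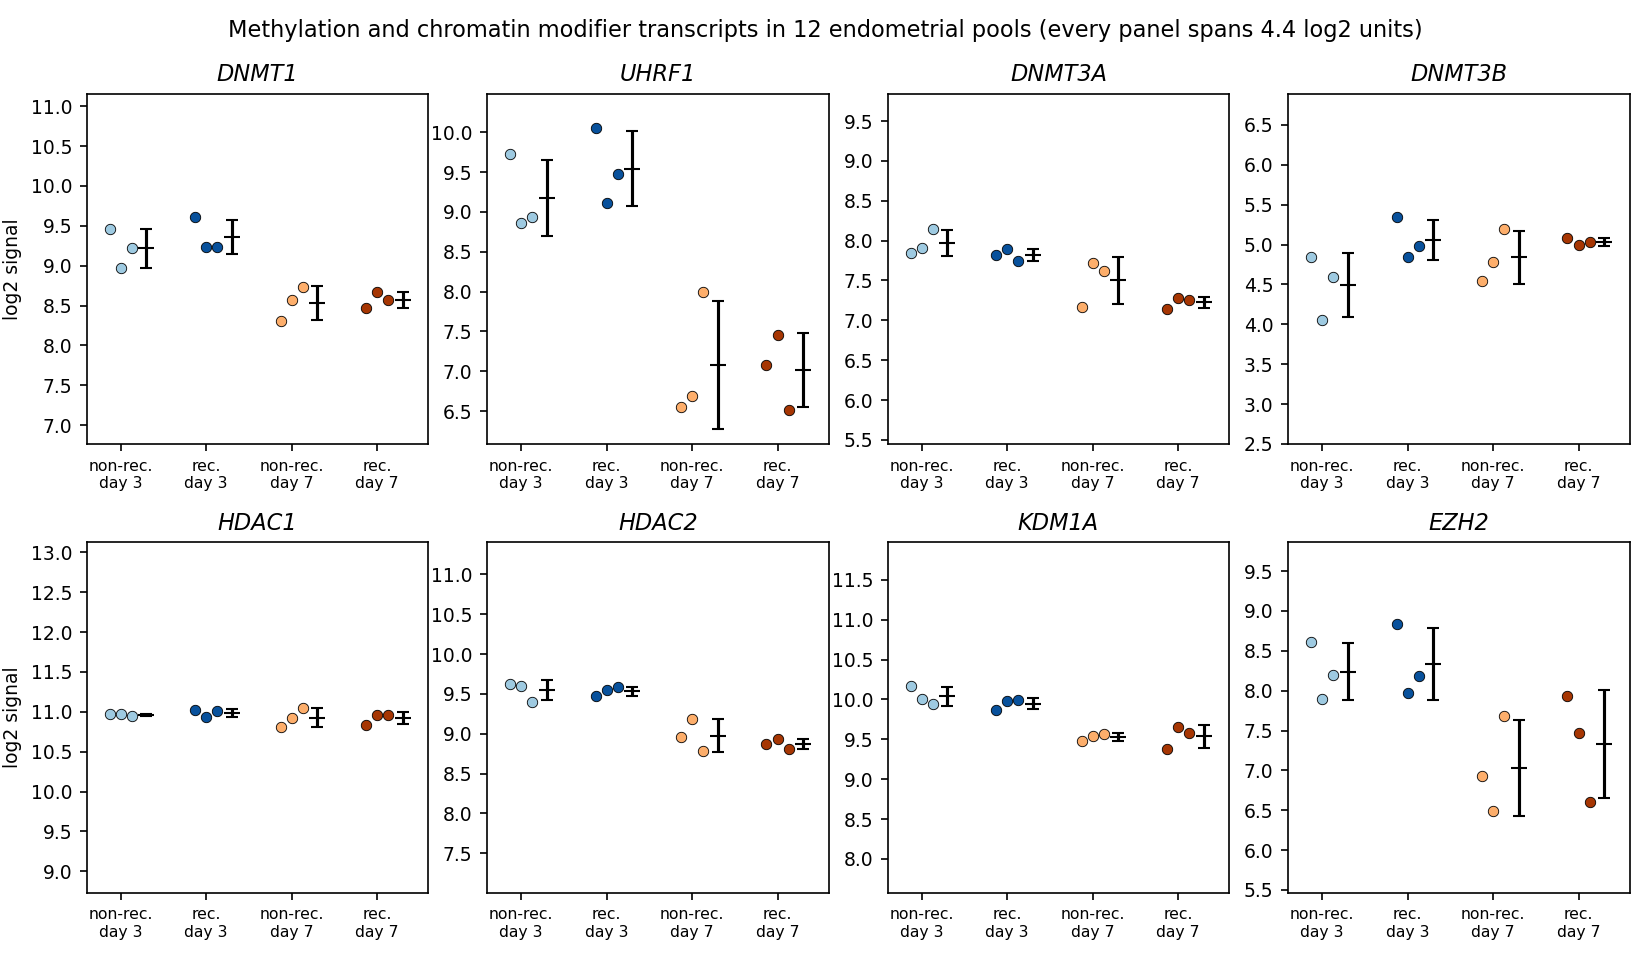
Log2 signal (y axis) of the 8 genes by group (x axis), with each point a pool, and the horizontal tick and bar beside the points the mean and SD of the 3 pools. UHRF1 lay between 8.86 and 10.05 on day 3 and between 6.52 and 8.0 on day 7, while HDAC1 stayed between 10.81 and 11.05 in all pools.

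UHRF1, the recruiter of DNMT1, showed the largest change of the 8 genes. Its brighter probe set read 9.72, 8.86 and 8.94 in the non-receptive and 10.05, 9.11 and 9.47 in the receptive pools of day 3. On day 7 it read 6.55, 6.69 and 8.0 in the non-receptive and 7.08, 7.45 and 6.52 in the receptive pools. The highest pool of day 7, non-receptive pool 3, was still below the lowest pool of day 3, and the pools of both receptivity groups were intermingled within each day. The log2 change was -2.31 (SE 0.30, 95% interval -2.98 to -1.64, limma adjusted p = 0.00266), so that the signal on day 7 was 20.2% of that on day 3. Only 0.217% of all probe sets had a more negative change. The second UHRF1 probe set, at lower signal, gave 7.82 to 9.06 on day 3 and 5.44 to 7.04 on day 7, with the same pool highest on day 7.

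DNMT1, the maintenance methyltransferase, fell by a smaller amount. Its only probe set read 9.46, 8.97 and 9.22 in non-receptive and 9.61, 9.24 and 9.24 in receptive pools of day 3, and 8.31, 8.57 and 8.73 in non-receptive and 8.47, 8.67 and 8.57 in receptive pools of day 7. All day 7 pools lay below all day 3 pools, and the receptivity groups overlapped within each day. The log2 change was -0.74 (SE 0.12, 95% interval -1.0 to -0.47, limma adjusted p = 0.00538), which left 60.0% of the signal of day 3. A more negative change was found for 5.69% of all probe sets.

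DNMT3A, a de novo methyltransferase, was lower on day 7 by its brightest probe set, and its probe sets disagreed. That probe set read 7.85, 7.91 and 8.15 in non-receptive and 7.82, 7.90 and 7.74 in receptive pools of day 3, then 7.17, 7.72 and 7.62 in non-receptive and 7.14, 7.28 and 7.25 in receptive pools of day 7. The days did not overlap, although non-receptive pool 2 of day 7 (7.72) was only just below receptive pool 3 of day 3 (7.74). The log2 change was -0.53 (SE 0.11, 95% interval -0.77 to -0.29, limma adjusted p = 0.012). A second probe set of similar signal had overlapping days (7.28 to 7.75 against 7.46 to 7.94) and a difference of 0.20 in the other direction (adjusted p = 0.259). A dimmer one had a difference of -0.35 (adjusted p = 0.117). With the mean of all 3 probe sets the DNMT3A difference was -0.23 and not called (adjusted p = 0.0965), so the call rests on 1 of the 3 probe sets.

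DNMT3B, the other de novo enzyme, was dim. Its brighter probe set read 4.84, 4.05 and 4.59 in non-receptive and 5.34, 4.85 and 4.98 in receptive pools of day 3, and 4.54, 4.78 and 5.20 in non-receptive and 5.08, 4.99 and 5.03 in receptive pools of day 7. The days overlapped throughout, with a difference of 0.16 (95% interval -0.20 to 0.52, limma adjusted p = 0.542). The second DNMT3B probe set differed by -0.25 (adjusted p = 0.539), so the direction was not settled between them.

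**Figure D2:**
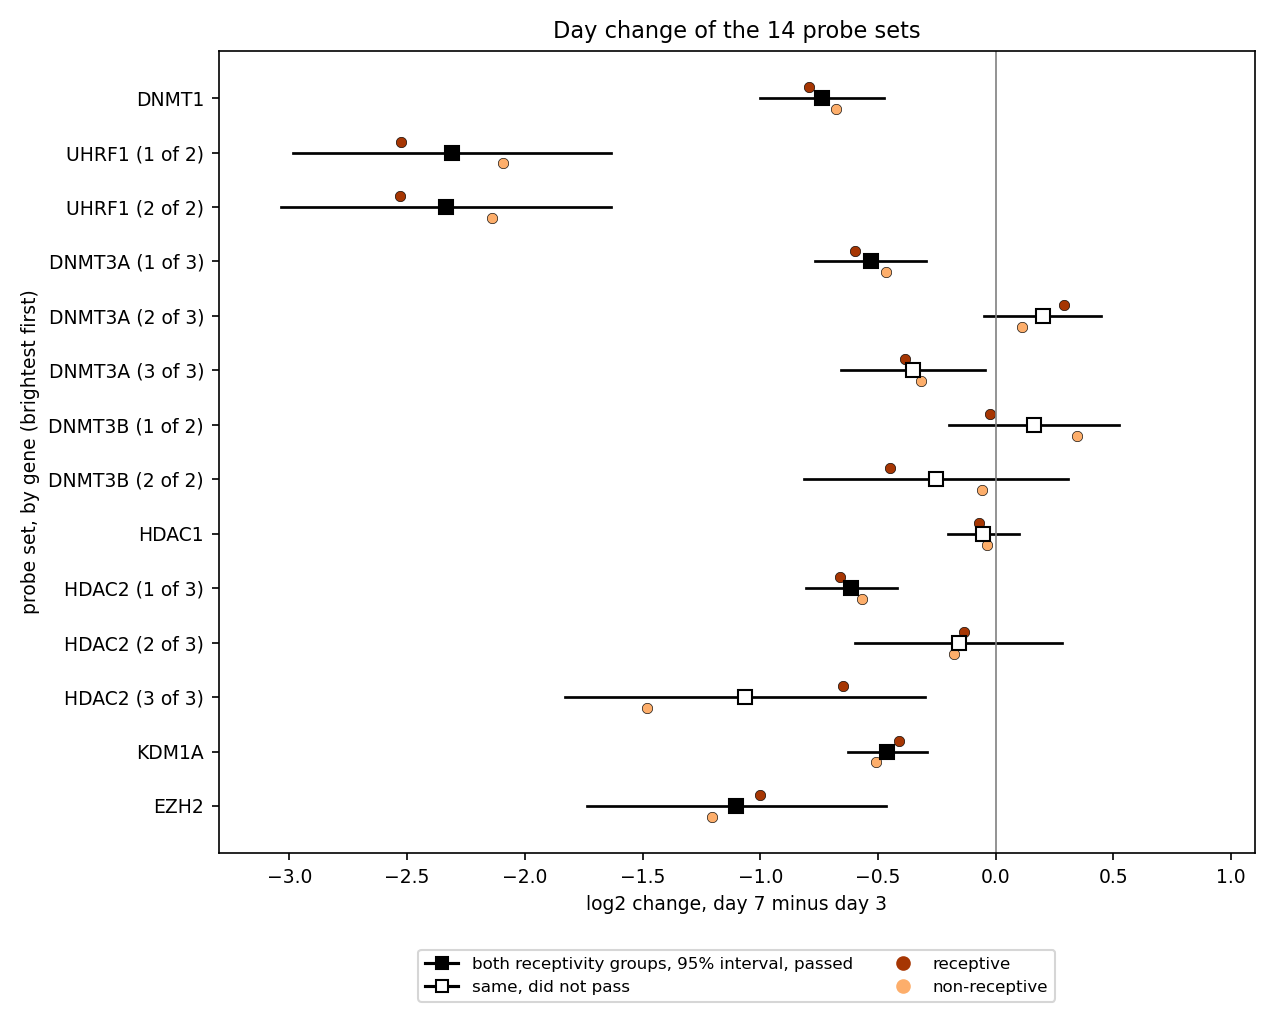
Log2 change from day 3 to day 7 averaged over receptivity (x axis) of all 14 member probe sets (y axis) as squares with the 95% interval, filled where the test was passed, and within receptive and non-receptive endometrium as dots. Both UHRF1 probe sets lay near -2.3, while the probe sets of DNMT3A and of DNMT3B lay on both sides of 0.

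Among the deacetylases, HDAC2 fell and HDAC1 did not pass. HDAC2 read 9.63, 9.60 and 9.40 in non-receptive and 9.47, 9.55 and 9.58 in receptive pools of day 3, and 8.96, 9.19 and 8.78 in non-receptive and 8.87, 8.94 and 8.81 in receptive pools of day 7. The days were apart, with 9.19 as the highest value of day 7 and 9.40 as the lowest of day 3. The log2 change was -0.61 (SE 0.09, 95% interval -0.81 to -0.42, limma adjusted p = 0.00339), or 65.4% of the day 3 signal. The other HDAC2 probe sets, which share 1 transcript record that is not the record of the brightest one, had differences of -1.06 (adjusted p = 0.0658) and -0.16 (adjusted p = 0.636).

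HDAC1, measured by 1 probe set, was the steadiest member. It read 10.97, 10.97 and 10.95 in non-receptive and 11.02, 10.93 and 11.01 in receptive pools of day 3, and 10.81, 10.92 and 11.05 in non-receptive and 10.83, 10.96 and 10.96 in receptive pools of day 7. The days overlapped, and the difference of -0.05 had a 95% interval of -0.20 to 0.10 (limma adjusted p = 0.638), which leaves out a change of the size seen for HDAC2.

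KDM1A, the lysine demethylase that partners with the deacetylases, fell by the smallest amount among the 6 called members. Its only probe set read 10.17, 10.01 and 9.94 in non-receptive and 9.87, 9.98 and 9.99 in receptive pools of day 3, and 9.48, 9.54 and 9.57 in non-receptive and 9.38, 9.65 and 9.58 in receptive pools of day 7. No pool of day 7 reached the day 3 range. The log2 change was -0.46 (SE 0.08, 95% interval -0.63 to -0.29, limma adjusted p = 0.00586), or 72.7% of the day 3 signal.

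EZH2, the Polycomb methyltransferase, had the second largest change, with days that overlapped. Its only probe set read 8.61, 7.90 and 8.20 in non-receptive and 8.84, 7.97 and 8.19 in receptive pools of day 3, and 6.93, 6.49 and 7.68 in non-receptive and 7.93, 7.47 and 6.60 in receptive pools of day 7. The overlap came from 1 pool of day 7, since receptive pool 1 of day 7 (7.93) was above non-receptive pool 2 of day 3 (7.90). The log2 change was -1.10 (SE 0.28, 95% interval -1.74 to -0.47, limma adjusted p = 0.0307), and 2.45% of all probe sets had a more negative one. This call depended on single pools. It was lost without non-receptive day 3 pool 1 (adjusted p = 0.0774) or pool 3 (0.0518), receptive day 3 pool 1 (0.0653) or pool 3 (0.057), non-receptive day 7 pool 1 (0.068) or pool 2 (0.0536), or receptive day 7 pool 3 (0.0535), with log2 changes of -1.26 to -0.92 over all pools left out in turn.

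The day change was then taken within each receptivity group, which compares 3 with 3 pools that the other group does not share. In receptive endometrium 3 of 8 members were lower on day 7 (1.26% of all named genes were), namely UHRF1 (log2 change -2.53, adjusted p = 0.0289), HDAC2 (-0.66, adjusted p = 0.0351) and DNMT1 (-0.79, adjusted p = 0.0464). In non-receptive endometrium 3 of 8 were lower (1.82% of all named genes), namely UHRF1 (-2.09, adjusted p = 0.039), KDM1A (-0.51, adjusted p = 0.0426) and HDAC2 (-0.57, adjusted p = 0.0448). KDM1A had a change of -0.41 in receptive pools (adjusted p = 0.0745) and DNMT1 of -0.68 in non-receptive pools (adjusted p = 0.0623), both short of the threshold. EZH2 differed by -1.0 and -1.20 (adjusted p = 0.201 and 0.137) and DNMT3A by -0.60 and -0.47 (adjusted p = 0.0687 and 0.125). These within-group counts rested on single pools and on the pools in the fit. With each pool left out in turn they were 0 to 3 in receptive and 0 to 1 in non-receptive endometrium, and both were 0 when only the 6 pools compared were fitted.

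The day changes of the receptivity groups were compared directly by the interaction of day and receptivity. With limma 0 of 8 members passed (0% of all named genes were called). At an unadjusted p under 0.05 the number was also 0, beside 2.35% of all named genes. The largest interaction was that of UHRF1, -0.43 with a 95% interval of -1.78 to 0.92 (adjusted p = 0.999), followed by DNMT3B with -0.37 (-1.09 to 0.35). The intervals for HDAC1 (-0.33 to 0.27) and KDM1A (-0.24 to 0.44) were the narrowest. For UHRF1, a difference between receptivity groups of the size seen was thus within the error.

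Receptive and non-receptive endometrium were also compared on each day. By limma, 0 of 8 members passed on day 3 (0.0109% of all named genes were called), on day 7 (0%) or averaged over days (0%). At an unadjusted p under 0.05 the numbers were 1, 0 and 1, beside 4.48%, 4.48% and 5.83% of all named genes, and the gene was DNMT3B each time. Its receptive pools of day 3 (4.85 to 5.34) lay just above its non-receptive ones (4.05 to 4.84), a difference of 0.56 (95% interval 0.05 to 1.07, limma adjusted p = 0.936). The second DNMT3B probe set differed by -0.23 on that day (adjusted p = 0.972), so the probe sets again went opposite ways.

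For the maintenance genes the receptivity differences were small beside their intervals. UHRF1 was 0.37 higher in receptive pools of day 3 (-0.58 to 1.32) and differed by -0.06 on day 7 (-1.02 to 0.89). DNMT1 differed by 0.15 on day 3 (-0.22 to 0.52) and by 0.03 on day 7 (-0.34 to 0.40). DNMT3A had differences of -0.15 and -0.28, with the interval on day 7 reaching from -0.62 to 0.06. EZH2 differed by 0.10 on day 3 and by 0.30 on day 7 (-0.60 to 1.20). The differences of HDAC1, HDAC2 and KDM1A lay between -0.10 and 0.02 on both days. RNA length, as read from the gap of the actin control probe sets at the 3' and 5' end, differed too. That gap was 0.82 to 3.11 in receptive and 0.02 to 0.93 in non-receptive pools, and its part in these differences was not tested. The gap moved with the days too. In receptive pools it was 1.05 to 3.11 on day 3 and 0.82 to 1.25 on day 7, and in non-receptive pools 0.48 to 0.93 and 0.02 to 0.63. Without receptive day 3 pool 1, where it was 3.11, DNMT1, UHRF1, DNMT3A, HDAC2 and KDM1A were still called as lower on day 7 in the averaged comparison, and EZH2 was not. The receptive pools of day 3 that were kept had gaps of 1.05 and 1.80, so leaving out this pool did not even out the days. The part of the gap in the day changes was not tested.

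Ordered by mean level, both day 3 groups stood above both day 7 groups for every member except DNMT3B, although the HDAC1 means spanned only 10.92 to 10.99. For UHRF1, DNMT1, DNMT3A, HDAC2 and KDM1A the gap between the days separated the pools, while neighbouring groups of the same day overlapped. For EZH2, DNMT3B and HDAC1 all neighbouring groups overlapped.

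Maintenance and de novo genes were set against each other within each pool, by the difference of their log2 signals. Since probe sets differ in their affinity, only the change of such a difference between pools can be read, not its level. UHRF1 minus DNMT3A was 0.79 to 2.23 on day 3 and -1.03 to 0.38 on day 7, with a mean change of -1.78. UHRF1 minus DNMT3B was 4.26 to 4.88 on day 3 and 1.49 to 2.80 on day 7, with a mean change of -2.47. The pools of both days were separate for both differences. They were also separate with each of the other DNMT3A and DNMT3B probe sets, with mean changes of -1.78 to -2.51 over all 5.

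For DNMT1 the outcome depended on the probe set of the de novo gene. With the brighter probe sets, DNMT1 minus DNMT3B was 4.26 to 4.92 on day 3 and 3.39 to 3.79 on day 7, with separate days and a change of -0.90. DNMT1 minus DNMT3A was 1.06 to 1.79 on day 3 and 0.85 to 1.39 on day 7, so the days overlapped, and the mean change was -0.21. With the other DNMT3B probe set the days overlapped as well (4.50 to 6.13 and 3.19 to 5.08), and the change was -0.48. With the second DNMT3A probe set the days were separate (1.43 to 2.06 and 0.69 to 1.11, change -0.94), and with the dimmest one they overlapped (change -0.39). Neither de novo gene thus gave 1 answer for DNMT1. No test was made of these differences, which share the day contrast of the members themselves.

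**Figure D3:**
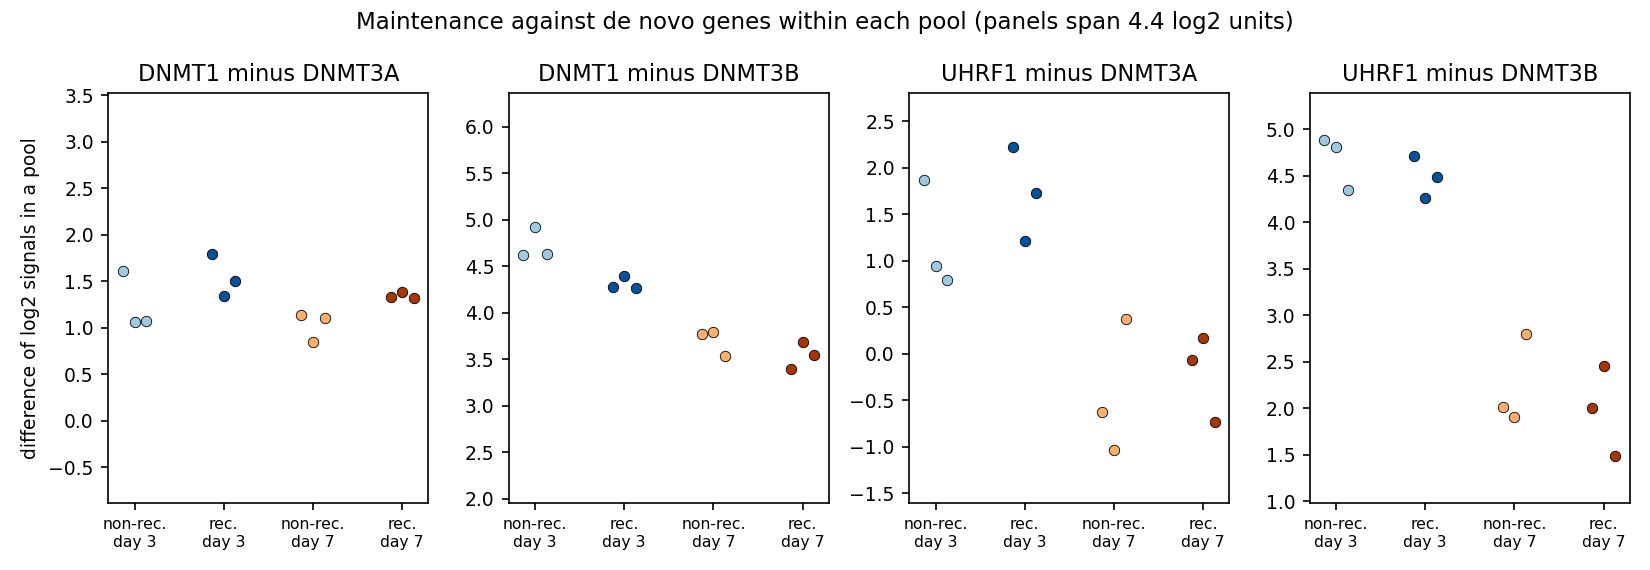
Difference of the log2 signals of a maintenance gene and a de novo gene (y axis), each by its brightest probe set, in each pool (points) by group (x axis). UHRF1 minus DNMT3A fell by 1.78 between the days without overlap, whereas DNMT1 minus DNMT3A (1.06 to 1.79 on day 3, 0.85 to 1.39 on day 7) overlapped.

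The genes whose pattern over the 12 pools was most like that of a member were picked among 8900 named genes by Pearson's correlation, given as a description. For UHRF1 these were PCNA, the sliding clamp of DNA replication (r = 0.992), CHTF18, which loads the clamp (0.992), and MCM4 of the replicative helicase (0.990). For DNMT1 they were PCNA (0.978), MCM3 (0.975) and the RNA helicase gene DHX15 (0.973). EZH2 was nearest to BUB1B of the spindle checkpoint (0.957), FANCI (0.949) and CSE1L (0.948). HDAC2 was nearest to MIA (0.976), HNRNPH1 (0.973) and RBMX (0.969), the last pair being RNA-binding proteins of splicing, and KDM1A to EVC2 (0.976), FAM168B (0.971) and WRNIP1 (0.970). DNMT3A was nearest to ZSCAN31 (0.943), PAFAH1B2 (0.942) and DAAM1 (0.920). For DNMT3B they were NTAQ1 (0.851), GATAD1 (0.817) and SUSD4 (0.807), and for HDAC1 YWHAE (0.902), MRPS5 (0.846) and CDK4 (0.844). The values pooled both days, so genes that simply differ between days score high. Within day 3 alone UHRF1 and PCNA still correlated at 0.958 and within day 7 at 0.957. HDAC2 and MIA correlated at 0.365 within day 3 and at 0.918 within day 7, and KDM1A and EVC2 at 0.742 and 0.962.

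The members therefore were also set against a list of DNA replication and S phase genes within each day. The list level of a pool averages, over its 15 measured genes, how far each gene lay from its own mean of all pools in log2 units, and it was 0.22 to 0.88 on day 3 and -0.68 to -0.10 on day 7. Both values of a pair come from the same array, there are 6 pools per day, and the 16 correlations are given without a test. UHRF1 followed the list closely, at r = 0.986 (rho 0.943) on day 3 and 0.945 (rho 0.886) on day 7, and DNMT1 at 0.933 and 0.811 (rho 0.899 on both). EZH2 had 0.963 on day 3 and 0.502 on day 7.

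HDAC2 and KDM1A, which fell between the days as well, had r = -0.02 and -0.03 with the list on day 3, and -0.42 and 0.49 on day 7. On day 3 the SD was 0.09 for HDAC2, 0.10 for KDM1A and 0.03 for HDAC1, against 0.47 for UHRF1. With 6 pools and so small a spread, an r near 0 does not show that a gene is unrelated to the list. DNMT3A had r = -0.51 on day 3 and 0.48 on day 7. DNMT3B by its brighter probe set (0.824 and 0.640) and HDAC1 (0.715 and 0.826) correlated with the list within both days, although neither passed the test between days. The second DNMT3B probe set was not set against the list. Its lowest value of day 3 (3.48) was in receptive pool 1, which had the highest list level of that day (0.88). Without the 2 pools farthest from the median list level, the UHRF1 value was 0.929 on day 3 and 0.364 on day 7, that of DNMT1 0.670 and 0.932, and that of EZH2 0.781 and -0.08. The day 7 values of UHRF1 and EZH2 thus rest on few pools, among them non-receptive pool 3, which had the highest list level of that day (-0.10) and also the highest UHRF1 signal (8.0).

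**Figure D4:**
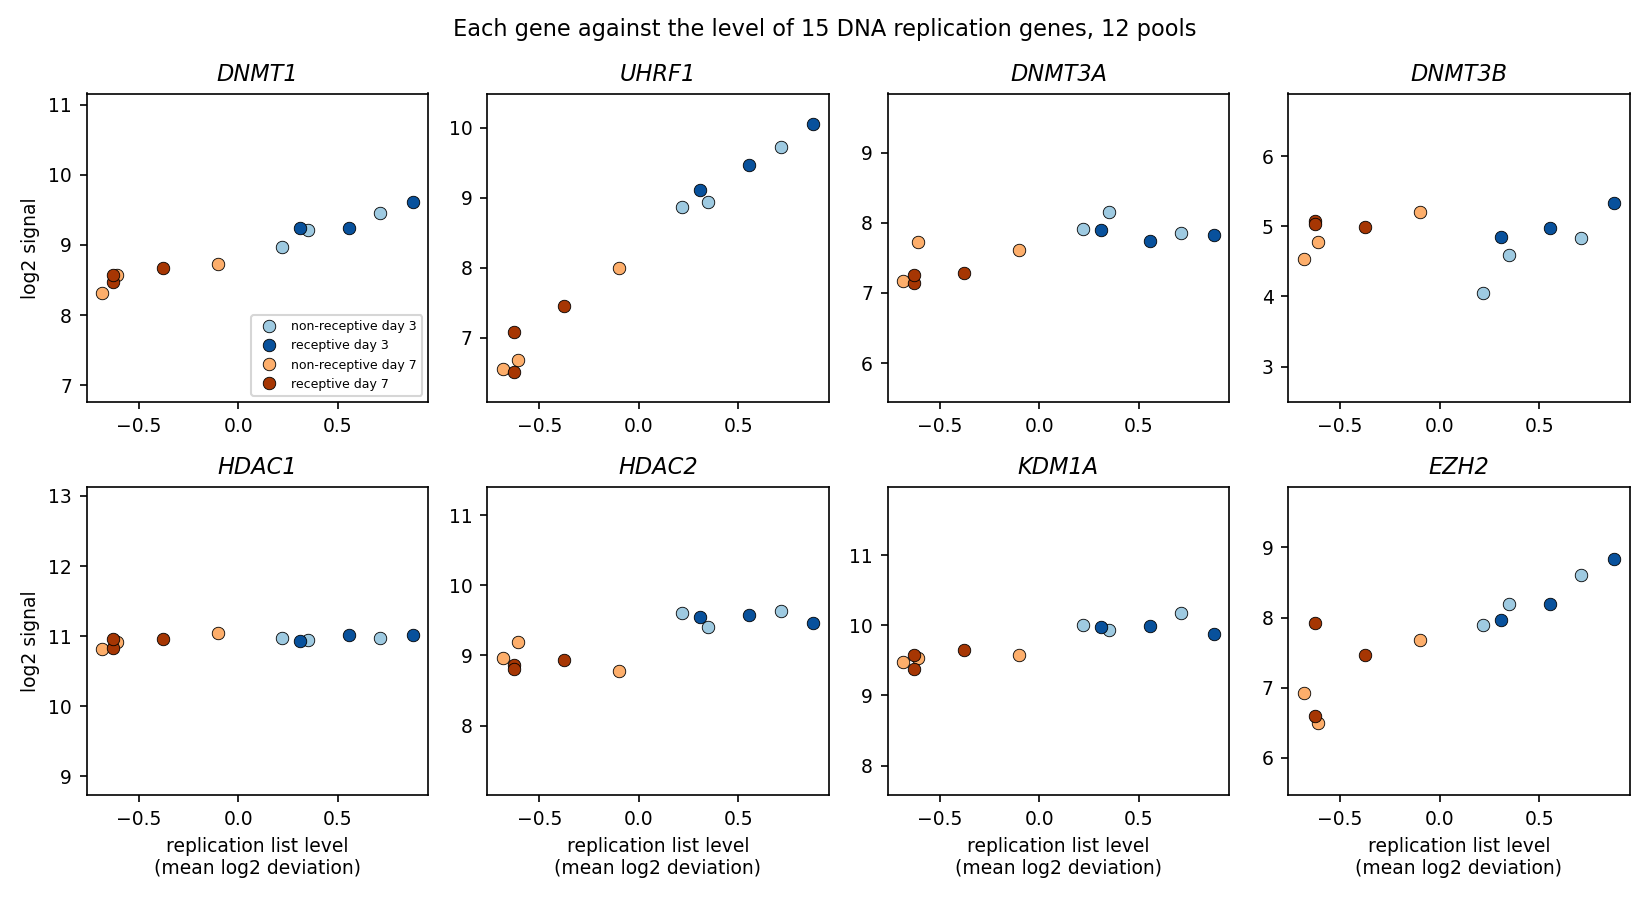
Log2 signal of each member (y axis) against the level of the replication list (x axis, mean log2 signal of 15 genes relative to their means over all pools) in the 12 pools (points), by day and receptivity. UHRF1 rose with the list level within both days (r = 0.986 and 0.945). HDAC2 differed between days and had r = -0.02 within day 3, where its pools spanned only 9.40 to 9.63, and r = -0.42 within day 7.

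The relatives and partners of the members were counted in lists, in the averaged day comparison. Of 79 measured genes in 8 chromatin lists, 19 were lower on day 7 and 0 were higher, which is 24.1% beside 10.3% of all named genes, with a median log2 change of -0.18. The lists were chosen with earlier results of these data known, so the excess over that share is only a description. Chromatin assembly and heterochromatin genes had the most calls, with 7 of 12 lower and 0 higher (median -0.37). CHAF1B and CHAF1A, subunits of the factor that places histones behind the replication fork, had log2 changes of -1.02 (adjusted p = 0.00684) and -0.93 (adjusted p = 0.00733), and the heterochromatin protein CBX3 of -0.37 (adjusted p = 0.00747).

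Histone methyltransferases other than EZH2 were lower for 3 of 10 (median -0.27), and these were the arginine methyltransferases PRMT5 (-0.59, adjusted p = 0.00433) and PRMT1 (-0.60, adjusted p = 0.00935) and the H3 lysine methyltransferase EHMT1 (-0.35, adjusted p = 0.0127). In the rest of the Polycomb group 1 of 8 was lower (median -0.20), PHC1 with -0.32 (adjusted p = 0.0342). EED, the partner of EZH2 in its complex, had -0.26 (adjusted p = 0.0624), and EZH1, the related enzyme, -0.22 (adjusted p = 0.233).

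Other deacetylases and the complex partners of HDAC1 and HDAC2 were lower for 4 of 21 (median -0.18). These were the histone-binding RBBP4 (-0.34, adjusted p = 0.0147), the NuRD subunits MTA1 (-0.37, adjusted p = 0.0168) and CHD4 (-0.39, adjusted p = 0.0405), and the deacetylase SIRT1 (-0.36, adjusted p = 0.0307). Of the other histone demethylases 0 of 4 passed (median -0.07), with KDM2B at -0.21 and KDM6A at -0.10. The acetyltransferases, which oppose the deacetylases, had 2 of 8 lower, HAT1 (-0.32, adjusted p = 0.0223) and KAT6B (-0.47, adjusted p = 0.0279).

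Cofactors, readers and removal of DNA methylation other than the members had 0 of 9 called by limma and a median of -0.01. The reader MBD3 differed by -0.33 (adjusted p = 0.0625), and GADD45B, implicated in demethylation, by 0.57 (adjusted p = 0.205). The list of methyl donor supply had 2 of 7 lower, TYMS (-1.11, adjusted p = 0.0074) and MTHFD1 (-0.57, adjusted p = 0.0127). TYMS, thymidylate synthase, supplies no methyl donor but uses a folate carbon unit to make a DNA precursor, and the folate enzyme MTHFD1 serves nucleotide synthesis as well. For comparison, the replication list had 14 of 15 lower, with a median of -0.97, and MCM4 and PCNA at -1.61 and -1.01. No gene of these lists was called in any comparison of receptive with non-receptive endometrium or in the interaction (limma).

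**Figure D5:**
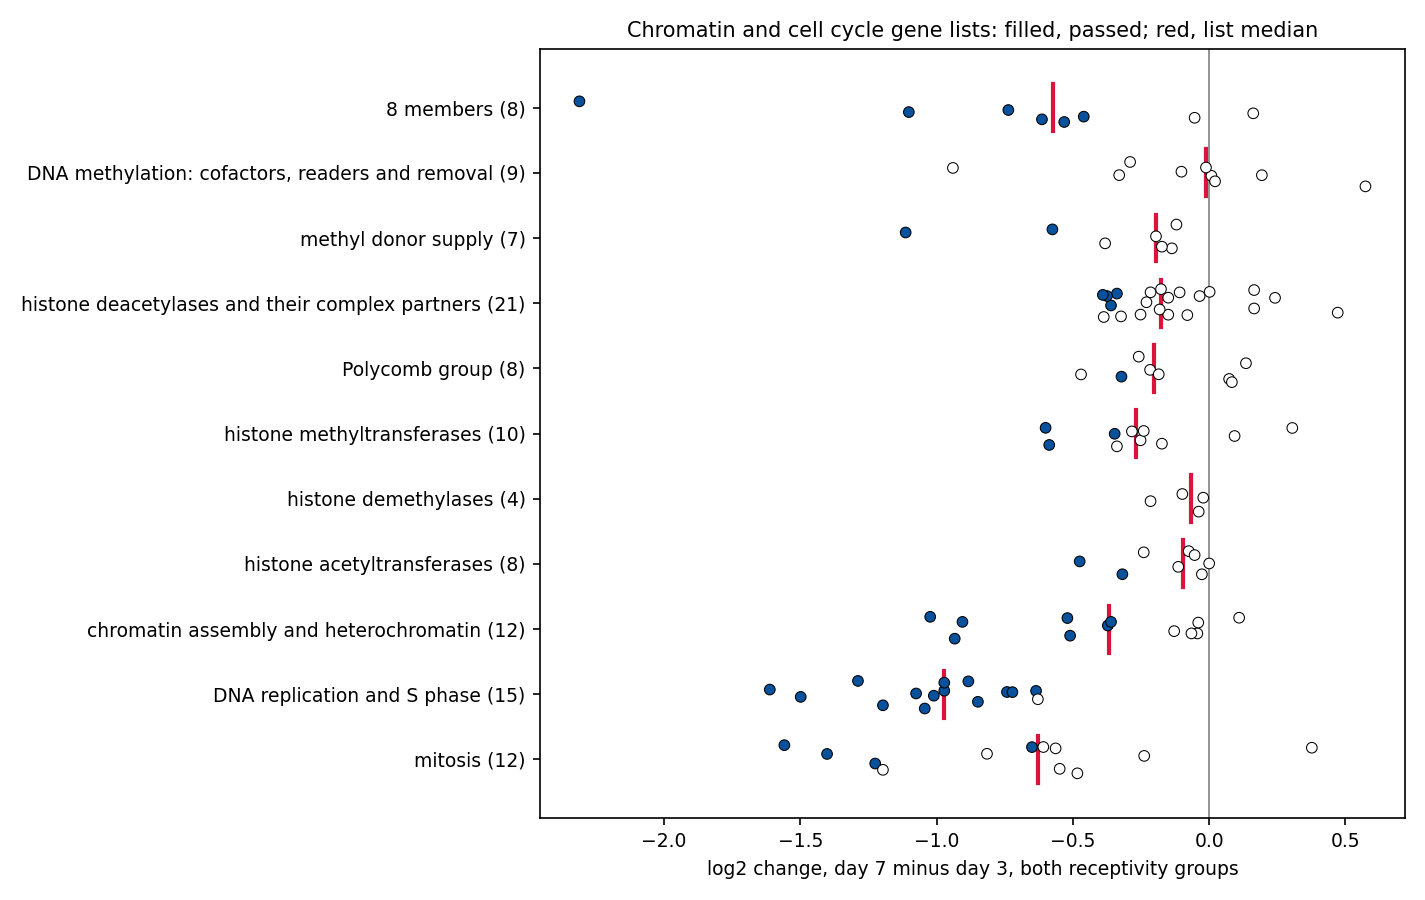
Log2 change from day 3 to day 7 averaged over receptivity (x axis) of each measured gene (points) of the lists (y axis, number of genes in parentheses), filled where called, with the list median as a red bar. The median was -0.97 for the replication list, -0.57 for the 8 members and -0.37 for chromatin assembly, and no gene of the 8 chromatin lists was called as higher.

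Markers of other cells moved with the days. The mean level of the neutrophil markers was -2.30 to -1.25 on day 3 and 0.21 to 2.86 on day 7 (4 of 4 higher, with MMP9 at 0 in 3 pools of day 3), and that of squamous epithelium -1.55 to -0.84 and -0.27 to 1.67 (4 of 4 higher). Stromal markers had 2 of 9 lower and ranged from -0.71 to 1.41 on day 3 and from -1.02 to 0.13 on day 7, with non-receptive pool 3 of day 3 at -0.71. Endothelial markers had 2 of 5 lower, leukocyte markers 1 of 8 higher and 1 lower, and B cell markers 1 of 2 lower. The 9 measured epithelial markers had 0 called by limma and ranged from -0.18 to 0.06 on day 3 and from -0.13 to 0.29 on day 7. The part of cell composition in the lower signals of the members was not tested.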

How the data were processed

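Per the labels, endometrial RNA was extracted with TRI Reagent, freed of DNA and biotin-labelled for the array. The authors deposited 1 table of log2 signals for 24128 probe sets in 12 arrays, ranging from 0, a floor, to 14.06. Affymetrix Expression Console, PLIER and GCOS 1.1.1 are named in the submitters' processing notes, with no role or order. How arrays were scaled to each other was not given in the sources used here. Values were used as deposited, without 112 control probe sets. The number of arrays, 3 per group, limits the precision.

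Probe sets were named from the platform annotation of 2016. Of the 24016 tested, 13292 carried 1 symbol, 86 several and 10638 none. Probe sets with several symbols named no gene. Where a gene had several probe sets, the brightest by mean stood for it.

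A linear model with a mean per group was fitted to all 12 pools with limma 3.58.1 (R 4.3.3, lmFit and eBayes), with 7 contrasts and two-sided tests. Benjamini-Hochberg adjustment was over all 24016 probe sets, with a threshold of 0.05. Intervals are 95% intervals of single differences, not adjusted for multiple tests. Samples were grouped by their labels, and pool numbers did not enter the model. On simulated data for the averaged day contrast with 24016 probe sets, 15 of 50 changes of 0.5 log2 units were recovered, 38 of 50 of 1 unit, 45 of 50 of 2 units and 47 of 50 of 3 units, with 6 false calls.

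The members and lists were chosen with earlier results of these data known. Besides the members, the 3 genes most like each member by Pearson's correlation and up to 3 genes per list with the smallest p were named. CHD4, EZH1, EED, KDM6A and markers were added for their role after values had been seen. Lists held 219 entries, of which 151 were measured. Alternatives were other scaling, filters, probe set rules, moderation, samples in the fit, pool number as a block and each pool left out.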

Additional observations from a re-analysis of the deposited data

How the results depend on the processing

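Averaged over receptivity, 5 or 6 members were lower on day 7 in all 21 alternatives. DNMT1, UHRF1, HDAC2 and KDM1A were called in each of 20 alternatives followed for single genes, DNMT3A in 19 and EZH2 in 13. DNMT3B, not called in 19, turned to -0.0458 with the mean of its probe sets, and HDAC1, not called in 20, to 0.0108 after median centring. Such centring moved the median change of all probe sets from -0.05 to 0.01. The 3 calls in receptive endometrium became 5 with a mean signal of at least 5 and with trend and robust moderation, and 0 with only the groups compared. The 3 calls in non-receptive endometrium became 1 after median centring and 0 with only the groups compared. Leaving out single pools gave 0 to 3 and 0 to 1 calls. With the pool number as a replicate block, and with the pool number within receptivity as a replicate block, both counts were 0. The labels do not say whether same-numbered pools hold the same animals, so the numbers were not taken to pair samples. Same-numbered pools of a receptivity group had deviations correlating at -0.04 to 0.14 (6 pairs, mean 0.05). With 3 pools per group this cannot tell whether the days were paired. The cause of these shifts was not tested.

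Receptivity differences and interactions gave 0 calls under every alternative run. Of 318 receptivity differences of single members 18 changed sign, and the smallest adjusted p of all was 0.518. On day 3, HDAC1 differed by -0.0043 after quantile normalization, and on day 7 DNMT3B by -0.21 and HDAC2 by 0.0467 with the mean of all probe sets. With single pools left out, HDAC2 ranged from -0.0817 to 0.0333 and EZH2 from -0.16 to 0.28 on day 3. On day 7, DNMT1 ranged from -0.08 to 0.13, UHRF1 from -0.33 to 0.40, HDAC1 from -0.0683 to 0.0517, HDAC2 from -0.20 to 0.00333 and KDM1A from -0.05 to 0.085.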

Other observations

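Mitosis genes were a further list set beside the members. Of 12 measured genes 4 were lower on day 7 and 0 were higher, with a median log2 change of -0.63, and among those lower were the kinase gene AURKB (-0.65, limma adjusted p = 0.0275), BUB1B (-1.56, adjusted p = 0.0311) and BUB1 (-1.40, adjusted p = 0.0317). The level of the mitosis list overlapped between the days, at -0.12 to 0.91 on day 3 and -0.96 to 0.47 on day 7. Within day 7 it was -0.61, -0.96 and 0.47 in the non-receptive and 0.02, -0.29 and -0.85 in the receptive pools, and EZH2 had its lowest signals (6.49 and 6.60) in the pools with the lowest mitosis levels. The correlation of EZH2 with this list was 0.909 on day 7 (rho 0.943) and 0.217 on day 3 (rho 0.200), each over 6 pools that share the array, and it was looked at after the values had been seen. Without the 2 pools farthest from the median list level it was 0.999 on day 7 and -0.997 on day 3, over 4 pools each, so the day 3 value turned sign. For UHRF1 the correlation with the mitosis list was 0.889 on day 7 and 0.159 on day 3, and 0.751 and -0.830 without those pools. Such correlations were computed for every member, and EZH2 and UHRF1 were named because theirs were the largest on day 7. Those of the other members ran from -0.62 (HDAC2) to 0.650 (DNMT3B) on day 7. On day 3 they ran from -0.62 (KDM1A) to 0.663 (HDAC1), above the values of EZH2 and UHRF1. DNMT1 had 0.406 on day 7 and 0.003 on day 3.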
